A study of Arabidopsis thaliana with 3 samples.

Results

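The stepwise genes are 147 loci of Arabidopsis thaliana whose transcript level stood higher at each of 2 steps, from the starting leaf (T0) to the 2-day control and again from the 2-day control to the 2-day wounded explant, called the control step and the explant step. A locus was taken where it had 100 or more counts in the explant and 1 or more in both other libraries, and where its level was at least 4 times as high at each step. Levels are CPM, a gene's counts scaled to the same total of gene counts in every library. The tables hold 33602 loci, of which 16927 had these minimum counts, 149 of them passed, and the extensin genes AT1G76930 and AT1G21310 were left out by the same rule. The genes were thus chosen by the ratios at these 2 steps, so the ratios below describe them and were not tested.

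The material was first-pair rosette leaves of accession Col-0, with no mutation or transgene named, and RNA-seq gave 3 libraries. The explant library is labelled as 2 days of wounding, the 2-day control as a control of 2 days, and T0 as a control without a time. Seedlings grew on diluted MS medium, and explants cut at an age of 12 days were kept on B5 medium free of carbohydrate. The age label is 12 days after sowing for all 3 libraries. The series text speaks of a wound site and of remaining leaf, without a label that ties a piece to a library or says whether the 2-day control was detached. Each group is 1 library, so no p-value or spread between samples exists, and a difference between libraries is not shown to be one between conditions. Whether more cells carried a transcript or each cell carried more of it cannot be told apart in whole tissue RNA.

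Wounding of a leaf sets off jasmonate, ethylene and cell wall signals, and cut Arabidopsis leaves can form new roots near the wound. Among the known outputs of such signals are defensins and other small secreted proteins, peroxidases that cross-link wall polymers, glutathione transferases, and enzymes that make indole compounds such as camalexin. WRKY proteins bind W boxes in the promoters of many defence genes, and ERF proteins bind GCC boxes, as in the promoter of the defensin gene PDF1.2.

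Total gene counts were 43099934 at T0, 45097732 in the 2-day control and 46713257 in the explant, so 1 count was worth 0.0214 to 0.0232 CPM. Among the 16927 loci, 856 (5.06%) were at least 4-fold higher at the control step, 749 (4.42%) at the explant step, and 149 (0.88%) at both. The median ratio of all these loci was 1.25 for the 2-day control over T0 and 1.02 for the explant over the 2-day control. TMM scaling moved the first median by -0.27 on the log2 scale and DESeq2 size factors by -0.30, and ratios to T0 are best read against that shift. A shift of this size cannot turn a ratio of 4 or more, so by construction all 147 genes stayed higher at both steps with either scaling. The lowest ratios of the 2-day control to T0 were then 3.35 and 3.28.

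Motifs and promoters come first because they played no part in the choice of genes. The promoter windows ran from 250 bases before the annotated start to 50 after it, 300 bases in all, from RefSeq TAIR10.1, and 145 of the 147 genes had one. A W box, searched as TTGACC or TTGACT on both strands with overlaps allowed, was found in 71 of the 145 windows (49.0%), against 32.4% of the windows of all 27443 genes. The share was 46.8% in 282 windows of an explant-step set, genes at least 4-fold higher at the explant step with a 2-day control within 0.5 to 2 times T0. It was 33.9% in 492 windows of a control-step set, genes at least 4-fold higher at the control step whose explant level was 0.5 to 2 times that of the 2-day control. These shares carry no test, and they depend on the window: with the 200 bases nearest the start the W box shares were 32.4%, 23.6%, 39.7% and 25.6% in the same order of stepwise genes, all genes, explant-step set and control-step set. In the longer window the share of the stepwise genes lay nearer to the explant-step set. In the shorter one it lay between both sets, without a clear lean to either.

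The other 6 motifs were searched in the same way. The GCC box, GCCGCC, stood in 6 of the 145 windows (4.14%) against 2.57% of all windows. Its 6 holders were the defensin genes PDF1.2 and PDF1.2b, the neighbouring peroxidase genes Prx37 and AT4G08780, the acyltransferase gene AACT1 and the oxidoreductase gene AT4G38540. The G box, CACGTG, was found in 5.52% of the windows against 7.68% of all, AC elements (ACCTACC or ACCAACC) in 4.83% against 4.58%, TGACG in 24.1% against 23.1%, and the auxin response element TGTCTC in 11.03% against 14.2%. The TATA box TATAAA was found in 62.8% against 52.1%. A motif match is only a match of letters, and no binding was measured.

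**Figure D1:**
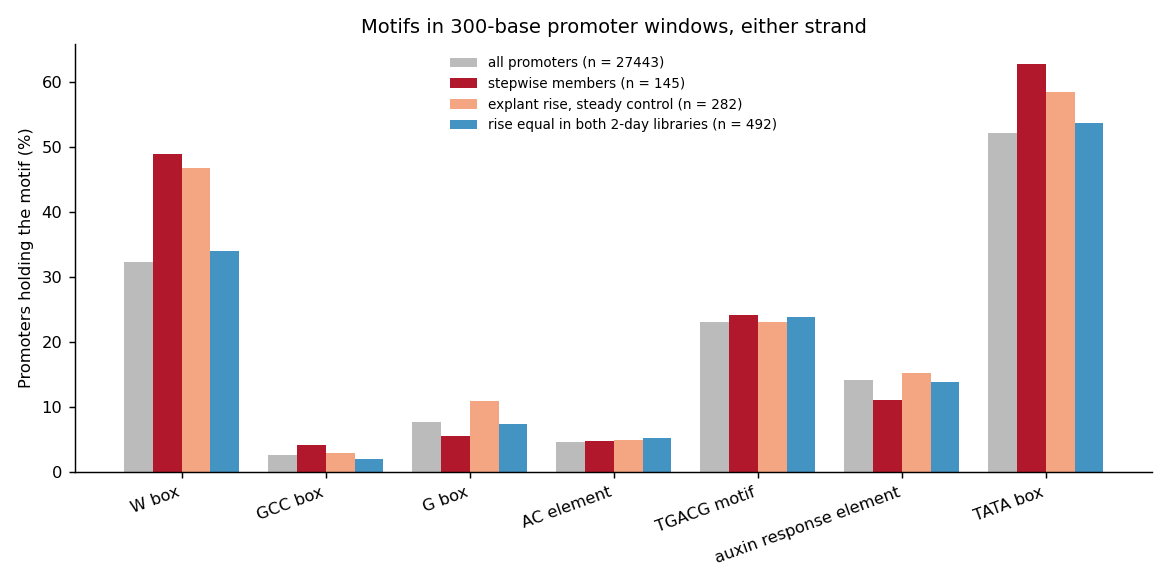
Share of 300-base promoter windows that hold each motif on either strand, in percent, for all genes (grey), the stepwise genes (red), the explant-step set (orange) and the control-step set (blue). The W box bars stand at 49.0% for the stepwise genes, 46.8% and 33.9% for the compared sets and 32.4% for all genes.

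Of the 71 genes with a W box, 22 had 2 or more and the most in a window was 4. Shown here are the 250 bases before the annotated start, on the strand of the gene, for 4 promoters with 2 or more W boxes, which show the motif counted above, and for both defensin promoters with a GCC box; capitals mark W boxes in the first 4 and the GCC box in the last 2. They are RefSeq TAIR10.1 sequences, from the minus strand of the reference for all but PDF1.2b, and no coordinates are given because the submitters name the build TAIR10.
AT5G64120: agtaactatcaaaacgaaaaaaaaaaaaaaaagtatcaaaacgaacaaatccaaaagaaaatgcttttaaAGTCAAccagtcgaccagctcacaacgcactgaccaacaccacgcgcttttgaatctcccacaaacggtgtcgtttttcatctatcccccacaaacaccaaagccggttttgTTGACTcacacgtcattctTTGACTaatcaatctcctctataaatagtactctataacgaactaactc
AT3G46280: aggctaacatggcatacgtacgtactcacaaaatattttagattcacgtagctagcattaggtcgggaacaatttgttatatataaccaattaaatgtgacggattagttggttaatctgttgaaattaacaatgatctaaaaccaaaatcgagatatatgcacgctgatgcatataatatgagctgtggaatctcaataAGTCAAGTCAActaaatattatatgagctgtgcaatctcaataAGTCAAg
FRK1: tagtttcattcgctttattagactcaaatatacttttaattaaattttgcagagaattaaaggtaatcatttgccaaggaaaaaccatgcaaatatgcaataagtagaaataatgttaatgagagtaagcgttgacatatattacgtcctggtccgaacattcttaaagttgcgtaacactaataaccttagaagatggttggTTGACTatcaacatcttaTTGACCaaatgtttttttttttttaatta
AT2G43620: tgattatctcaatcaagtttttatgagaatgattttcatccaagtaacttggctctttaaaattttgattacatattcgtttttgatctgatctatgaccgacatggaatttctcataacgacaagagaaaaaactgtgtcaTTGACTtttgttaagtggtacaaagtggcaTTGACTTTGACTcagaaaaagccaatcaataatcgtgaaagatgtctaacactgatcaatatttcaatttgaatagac
PDF1.2: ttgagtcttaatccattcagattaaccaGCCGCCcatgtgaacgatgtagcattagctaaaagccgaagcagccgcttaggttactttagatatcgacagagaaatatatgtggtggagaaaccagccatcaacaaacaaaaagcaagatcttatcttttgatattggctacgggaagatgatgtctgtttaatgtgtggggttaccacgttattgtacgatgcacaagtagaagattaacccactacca
PDF1.2b: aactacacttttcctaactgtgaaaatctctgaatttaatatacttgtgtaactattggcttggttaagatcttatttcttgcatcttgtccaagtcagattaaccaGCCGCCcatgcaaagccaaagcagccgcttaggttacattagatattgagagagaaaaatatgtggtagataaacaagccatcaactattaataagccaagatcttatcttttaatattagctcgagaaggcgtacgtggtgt

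The peroxidase promoter of AT5G64120 holds 3 W boxes, 2 of them 68 and 49 bases before the start on the gene's strand. In the kinase-like gene AT3G46280 the capitals include 2 overlapping W boxes on the other strand, where the second begins before the first ends, and in the chitinase family gene AT2G43620 a pair lies end to end. FRK1, whose W boxes lie 47 and 29 bases before the start, is a standard marker of the response to bacterial flagellin. The 2 defensin promoters share a run of 22 bases, tcagattaaccaGCCGCCcatg, which holds the GCC box. It begins 234 bases before the start in PDF1.2 and 155 bases before it in PDF1.2b, although the genes lie on chromosomes 5 and 2.

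Among the stepwise genes the median level was 0.139 CPM at T0, 1.75 CPM in the 2-day control and 22.1 CPM in the explant, whereas the medians of all 16927 loci were 22.2, 27.6 and 27.9 CPM. The genes were thus scarce transcripts at T0 that came near the median level only in the explant. Together they held 0.00834% of the counts at T0, 0.0833% in the 2-day control and 1.29% in the explant. The rule of at least 4-fold at each step fixed in advance that levels and summed share rise, and it favours genes with low T0 levels. The ratio of the 2-day control to T0 had a median of 9.08 and ran from 4.03 to 175, and that of the explant to the 2-day control had a median of 11.1 and ran from 4.04 to 402. The explant step was the larger in 87 genes and the control step in 60; 30 genes were 10-fold or more at both. With TMM scaling and DESeq2 size factors the explant step was the larger in 90 and 93 genes, a count chosen after seeing the data.

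Counting error weighs mostly on T0, where 57 genes had 3 or fewer counts and 24 had 1. Exact 95% Clopper-Pearson intervals, from how a gene's counts split between both libraries, are given in brackets after each ratio. They hold counting error and nothing else, and since the sources mention no molecular identifiers even that may be understated. The lower bound lay above 4 in 74 genes for the 2-day control over T0, in 128 for the explant over the 2-day control, and in 62 for both. It lay at or below 1 for the control step of 3 genes, AT4G08780, GRP19 and GILT, each with 1 count at T0.

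**Figure D2:**
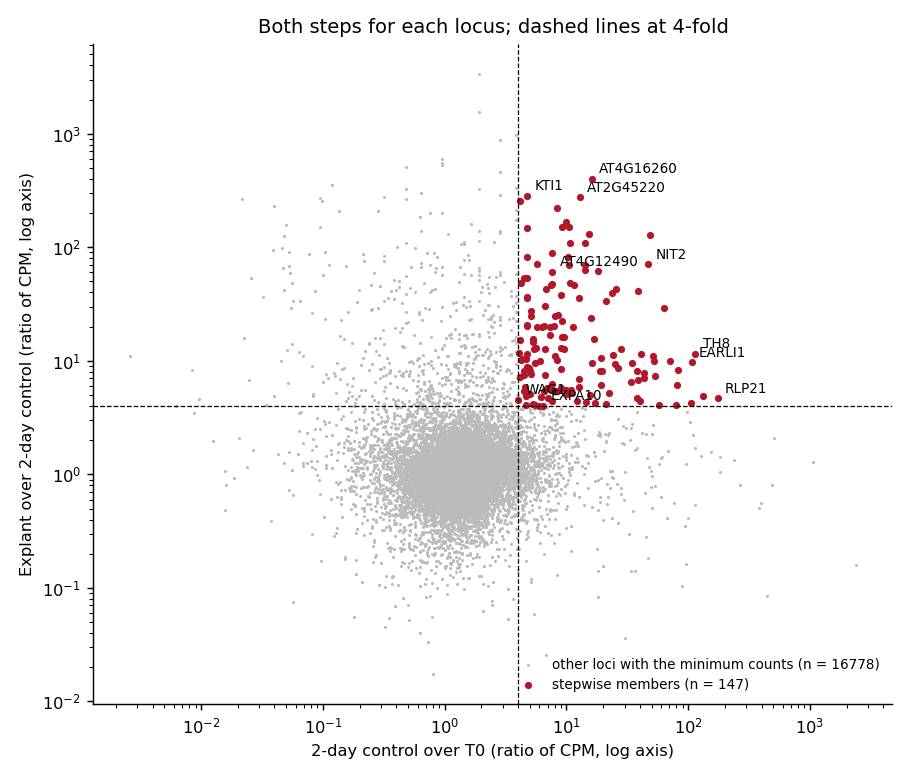
Ratio of CPM in the 2-day control over T0 (x, log axis) against the ratio in the explant over the 2-day control (y, log axis), 1 point per locus with the minimum counts; red points are the 147 stepwise genes, grey points the 16778 others, without the 2 extensin genes left out. Dashed lines mark 4-fold; the red points spread from EARLI1, TH8 and RLP21 at the right, past 100-fold at the control step, to AT4G16260 and KTI1 at the top, past 200-fold at the explant step.

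Genes just inside and just outside the limits were close to each other. At the control step the serine/threonine kinase gene WAG1 (4.03) and AT3G22240 (4.11) were inside, and AT3G17110 (3.99) and AT4G11910 (3.98) outside. At the explant step EXPA10 (4.04) and CML11 (4.04) were inside, and AKR4C8 (3.94) outside, as was GPT2, whose ratio fell short of 4 by less than the printed precision. At the count limit RSH2 (108 explant counts) and PERK2 (109) were inside, and AT2G04495 (94) and AT4G14780 (90) outside.

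The genes were sorted by what their products are, after their values had been seen. Lipid transfer and hybrid proline-rich proteins numbered 6, cell wall proteins and wall enzymes 14, defence peptides, hydrolases and proteinase inhibitors 13, receptors and kinases 12, specialised metabolism and detoxification 21, transporters and metal chelation 18, transcription factors 16, and other enzymes and proteins 47. Median explant steps by class ran from 5.79 for the transcription factors to 48.4 for the defence proteins, and median control steps from 7.001 to 17.9 for the lipid transfer class. The explant step was the larger in 11 of 13 defence genes, 10 of 14 wall genes and 13 of 18 transporter genes, and in 2 of 6 lipid transfer genes. Where 3 levels of a gene follow each other they are those at T0, in the 2-day control and in the explant, in that order, and 2 steps are the control step and then the explant step. Genes named below outside the naming rule were also picked after their values were seen.

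**Figure D3:**
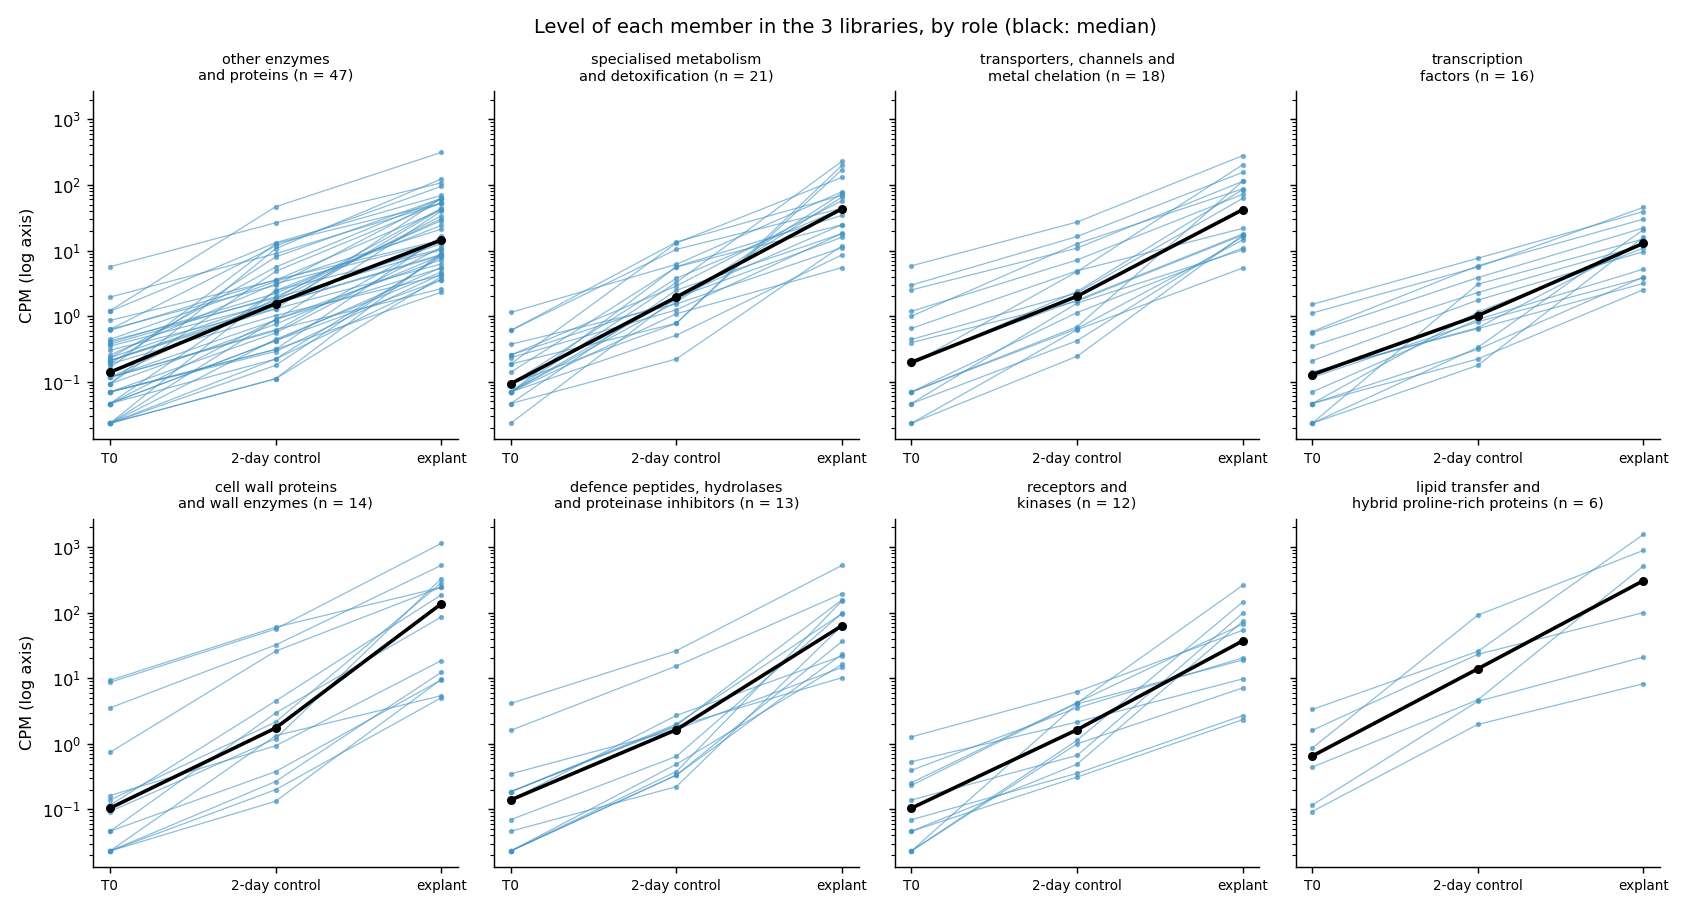
CPM (log axis) of each stepwise gene at T0, in the 2-day control and in the explant, 1 thin line per gene and 1 panel per product class; the thick black line joins the medians of the class; CPM is not scaled by gene length. The medians of the lipid transfer class are highest in all 3 libraries (0.6497, 13.9 and 307 CPM), and those of the transcription factors are the lowest in the 2-day control and the explant (1.02 and 12.9 CPM).

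The small lipid transfer and hybrid proline-rich proteins, secreted or membrane-linked proteins of which EARLI1 is known from cold and defence responses, held the gene with the most explant counts. AT4G12490 stood at 3.34 CPM at T0, 25.6 in the 2-day control and 1558 in the explant. Its control step was 7.67 (6.45 to 9.19) and its explant step 60.8 (57.3 to 64.5), and per kilobase of exon its explant level of 1982 CPM was the highest of all 147. EARLI1 reached 0.858, 91.6 and 890.3 CPM and had the steps in the other order, 107 (77.3 to 152) and then 9.72 (9.42 to 10.04). AT4G12500, the following locus of the tables, was at 0.441, 4.68 and 515 CPM, with ratios of 10.6 (6.63 to 17.98) and 110.0 (96.1 to 127). So 3 genes of 1 family that follow each other in the tables' loci reached 515 CPM or more in the explant, with control steps that ran from 7.67 to 107.

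AZI1, the gene beside EARLI1 and a known component of primed defence, was no stepwise gene. It stood at 3.78, 10.4 and 315 CPM, and its control step of 2.76 (2.301 to 3.31) stayed under 4-fold while its explant step was 30.2 (27.6 to 33.2). The following members of the row, AT4G12510 and AT4G12520, had 0 counts in all 3 libraries. The other lipid transfer genes of the stepwise set had fewer counts: AT3G22600 and AT3G22620, which lie next to each other, reached 21.02 and 8.24 CPM in the explant, and AT4G22470 100.1 CPM. In all, 6 of 37 lipid transfer genes with the minimum counts were stepwise genes, beside 0.88% of all loci.

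**Figure D4:**
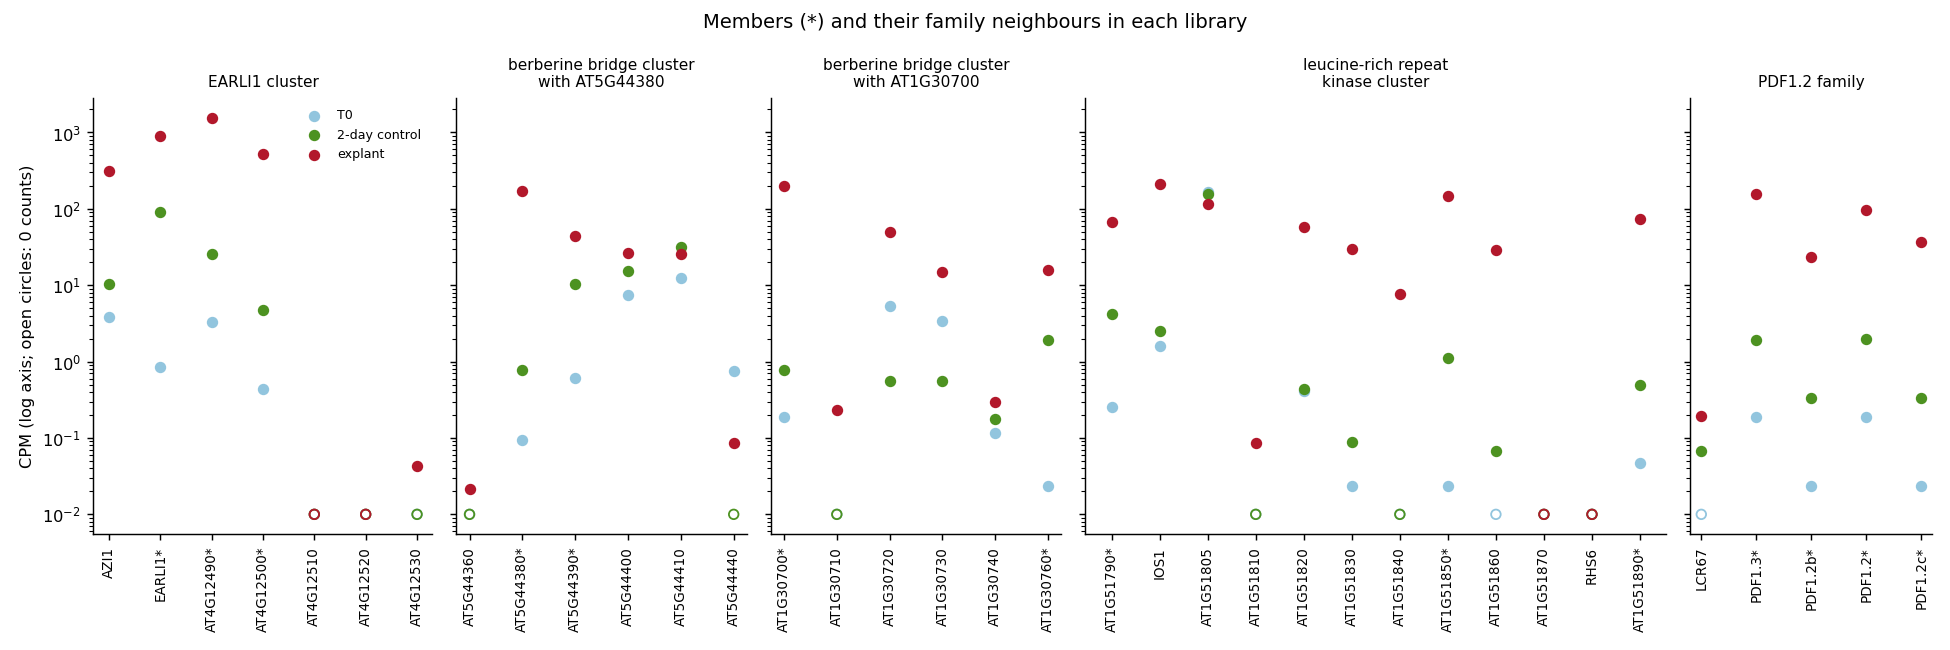
CPM (log axis) in T0 (light blue), the 2-day control (green) and the explant (red) for stepwise genes (marked with *) and the family members around them, 1 panel per gene cluster or family; open circles at the bottom stand for 0 counts, and where libraries coincide the last one drawn hides the others. In the EARLI1 panel the 3 stepwise genes climb over 2 or more decades in the explant, and in the kinase panel AT1G51805 stays between 117 and 168 CPM.

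Cell wall genes held the next most counted gene. Class III peroxidases are secreted enzymes that use hydrogen peroxide to cross-link or loosen wall polymers. They gave 6 stepwise genes of 26 measured, that is with the minimum counts, out of 75 by name, beside 0.88% of all loci. AT5G64120, whose promoter is printed above, stood at 8.65 CPM at T0, 56.3 in the 2-day control and 1137 in the explant, with steps of 6.50 (5.83 to 7.27) and 20.2 (19.4 to 21.04). Prx37 was at 0.139, 2.15 and 283 CPM, with steps of 15.5 (6.85 to 43.1) and 132 (108 to 163). AT2G37130 was at 0.742, 25.9 and 245 CPM and had the larger step in the control, 34.8 (24.5 to 51.2) against 9.49 (8.93 to 10.1). So these peroxidase genes differed in which step was the larger. PRX52, linked to lignin formation, had steps of similar size, 38.8 (16.4 to 121) and 41.4 (36.04 to 47.8), on the way to 186 CPM. AT4G36430 reached 85.8 CPM and AT4G08780, the neighbour of Prx37, 9.57 CPM; part of AT4G08780 also lies in the gene model AT4G08790, so its counts are less certain.

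AT2G45220 carries the reference name plant invertase/pectin methylesterase inhibitor superfamily, which does not say whether it encodes the enzyme or an inhibitor. AT2G45220 had one of the steepest explant steps. Its counts were 4 at T0, 54 in the 2-day control and 15358 in the explant, that is 0.0928, 1.197 and 329 CPM, and its explant step was 275 (210.3 to 366). The proline-rich extensin-like gene AT2G43150 stood at 3.53, 32.2 and 526 CPM, with steps of 9.12 (7.71 to 10.8) and 16.4 (15.5 to 17.3). EXPA10, an expansin that loosens cell walls, was the most counted wall gene at T0 (9.304 CPM at T0, 60.05 in the 2-day control and 242 in the explant) and among those with the smallest steps. Of 3 measured genes named extensin or LRX in the reference, 2 are those left out. The other passed no 4-fold limit upwards and was at least 4-fold lower at the explant step.

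Among defence proteins the plant defensins, small antifungal peptides, gave 4 stepwise genes of the 7 measured by the reference names, beside 0.88% of all loci. Those names cover 113 genes, most of them without the minimum counts. PDF1.3 stood at 0.186 CPM at T0, 1.91 in the 2-day control and 157 in the explant, and its neighbour PDF1.2b at 0.0232, 0.333 and 23.1. PDF1.2 was at 0.186, 1.996 and 96.6 CPM, and its own neighbour PDF1.2c at 0.0232, 0.333 and 36.3. Both pairs therefore hold 1 gene with more and 1 with fewer counts, and the T0 counts behind them are 8 for the first and 1 for the second of each pair. The explant steps were 82.2 (66.5 to 103) for PDF1.3, 69.5 (41.95 to 125) for PDF1.2b, 48.4 (39.3 to 60.3) for PDF1.2 and 109 (66.03 to 196) for PDF1.2c, all larger than their control steps of 10.3 to 14.3. LCR67, the defensin PDF1.1, had 0, 3 and 9 counts and was too scarce to judge.

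PR4, a chitin-binding protein that ethylene and jasmonate induce, stood at 4.13, 26.3 and 525 CPM, with steps of 6.36 (5.43 to 7.48) and 20.01 (18.9 to 21.2). The glycosyl hydrolase gene AT4G16260 had the highest explant step of all, 402 (251 to 690.2), with 1, 17 and 7076 counts. Proteinase inhibitors, which block digestive enzymes of insects and microbes, gave 3 of 10 measured by the reference names, beside 0.88% of all loci. KTI1 had steps of 4.78 (1.02 to 44.9) and 285 (155 to 595), with 2 counts at T0 and 10 in the 2-day control. With TMM scaling its control step was 3.97. UPI had steps of 9.24 (2.86 to 47.4) and 152 (106 to 227). The other was AT4G22470, with an explant step of 4.33 (4.05 to 4.63). It is sorted above with the lipid transfer class and was found here only by its product name. Chitinases gave 2 of 11, beside the same 0.88%. These were AT2G43620 at 1.601, 15.3 and 194 CPM and CHIA at 0.0232, 0.488 and 16.2 CPM.

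Of the list of jasmonate and ethylene defence outputs, 9 genes had the minimum counts; 6 were at least 4-fold higher at the control step, 8 were at least 4-fold higher and 1 at least 4-fold lower at the explant step, and 5 were stepwise genes (PDF1.2, PDF1.2b, PDF1.2c, PDF1.3 and PR4). The lower one was the thionin gene THI2.1, at 0.209, 92.04 and 7.73 CPM. The medians of the list were 10.3 and 20.01, against 1.25 and 1.02 over all loci. Of 5 measured salicylate-linked genes 1 was past 4-fold at the control step and 1 at the explant step, and none was a stepwise gene, against 0.88% of all loci. For the single steps of both lists, 5.06% of all loci were at least 4-fold higher at the control step and 4.42% at the explant step. The lists were chosen with earlier results of these data known, so they do not show that the set leans to one hormone.

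Receptors and kinases ranged from the kinase-like gene AT3G46280, at 0.232, 4.19 and 260.4 CPM, to scarce genes near the count limit. FRK1 stood at 0.139, 0.665 and 97.7 CPM, with a control step of 4.78 (1.96 to 14.04) and an explant step of 147 (103 to 218). RLP21, a receptor-like protein, had the highest control step of all, 175 (31.0 to 6945), from 1 count at T0 to 183 in the 2-day control, with 885 in the explant. The width of that interval shows how little 1 count fixes.

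A row of leucine-rich repeat kinase genes held 3 stepwise genes. AT1G51850 stood at 0.0232, 1.13 and 145 CPM, AT1G51890 at 0.0464, 0.488 and 73.8, and AT1G51790 at 0.255, 4.26 and 66.9. Others of the row had the explant step without the control step: IOS1 was at 1.601, 2.48 and 213 CPM and AT1G51820 at 0.418, 0.443 and 57.8. AT1G51805, in the middle, was at 168, 155 and 117 CPM and passed neither limit. Genes of the same row thus showed different patterns. Further receptor-like kinases were the cysteine-rich CRK30 and CRK6 and the lectin receptor kinase HLECRK, with explant levels of 53.8, 7.11 and 20.4 CPM. With FRK1 they made 4 stepwise genes of 151 measured receptor-like kinases by the reference names, beside 0.88% of all loci. That name search did not take in the stepwise genes of the row above.

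In specialised metabolism the nitrilase gene NIT2 had the most explant counts. NIT2, which can turn indole-3-acetonitrile into auxin, had 3 counts at T0, 147 in the 2-day control and 10742 in the explant, that is 0.0696, 3.26 and 230.0 CPM. Its steps were 46.8 (15.7 to 229.7) and 70.5 (59.95 to 83.6). CYP71A12, which makes indole-3-acetonitrile, stood at 0.0696, 1.64 and 65.2 CPM, and PAD3, the last enzyme of camalexin synthesis, at 0.0928, 3.77 and 43.4 CPM. These were the 3 stepwise genes among 13 measured genes of nitrilase, camalexin and indole defence. Of the 13, 4 were at least 4-fold higher at the control step and 7 at the explant step. Over all loci 5.06% passed the control step, 4.42% the explant step and 0.88% both. CYP71A13, the close relative of CYP71A12, was at 2.92, 16.7 and 5.76 CPM and was highest in the 2-day control.

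Berberine bridge enzyme family oxidases act on carbohydrates and on alcohol precursors of lignin among other substrates. They gave 4 stepwise genes of 14 measured, beside 0.88% of all loci. AT1G30700 stood at 0.186, 0.776 and 199 CPM, with steps of 4.18 (1.91 to 10.4) and 256 (184 to 367). Its control step was 3.48 with TMM scaling. AT5G44380 was at 0.0928, 0.776 and 171 CPM, with steps of 8.36 (2.99 to 32.4) and 219.9 (158 to 316). AT5G44390, next to AT5G44380, split the other way, with 17.3 (11.6 to 26.7) at the control step and 4.22 (3.81 to 4.67) at the explant step, as did AT1G30760 with 82.2 (14.4 to 3284) and 8.34 (6.66 to 10.6). Within the row of AT1G30700, AT1G30720 and AT1G30730 were lower in the 2-day control than at T0, at 5.34, 0.554 and 50.05 CPM for the first and 3.43, 0.554 and 14.9 for the second.

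Glutathione transferases, which couple glutathione to reactive compounds, gave 4 stepwise genes of 33 measured of all classes, beside 0.88% of all loci. These 4 are of the tau class. GSTU24 and GSTU8 reached 69.5 and 57.6 CPM in the explant from 0.603 and 0.255 at T0, and GSTU4 and GSTU11 24.7 and 5.48 CPM. GSTU24 and GSTU4 had the larger step in the control, 22.3 (15.1 to 34.4) and 40.3 (18.3 to 111), and GSTU8 in the explant, 19.98 (16.8 to 24.02). ChlAKR, an aldo-keto reductase that detoxifies carbonyl compounds in chloroplasts, stood at 0.186, 13.04 and 130.3 CPM, with a control step of 70.2 (35.4 to 163). PRR2, a pinoresinol reductase of lignan synthesis, was at 0.0696, 5.65 and 34.4 CPM. The gene FLS2 in the set is flavonol synthase 2, not the flagellin receptor of the same abbreviation, and was at 0.232, 1.24 and 18.2 CPM.

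None of the listed genes of the main flavonoid and lignin pathways was a stepwise gene. Of 12 measured anthocyanin and flavonoid genes, 9 were at least 4-fold higher at the control step and 1 at the explant step. Of 17 phenylpropanoid and lignin genes the counts were 0 and 5. Over all loci 5.06% and 4.42% passed the single steps and 0.88% both, and against that share lists of 12 and 17 genes are too short for a count of 0 to stand apart.

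Transporters carried amino acids, metals, sulfate and cations. LHT1, which takes up amino acids, stood at 5.85, 27.2 and 279.7 CPM, with steps of 4.65 (4.05 to 5.34) and 10.3 (9.71 to 10.9); its control step was 3.86 with TMM scaling. CHX17, a cation/proton exchanger, was at 0.0696, 0.687 and 114 CPM and had an explant step of 166 (117 to 245). In both genes the explant step was the larger. The nicotianamine synthases NAS1 and NAS3, which make a chelator of iron and zinc, were at 0.186, 4.77 and 204 CPM and at 0.394, 1.69 and 17.2 CPM. The high-affinity sulfate transporter SULTR1;2 was at 2.97, 16.4 and 155 CPM, and the zinc and manganese transporter family gene ZIP2 at 0.441, 2.26 and 62.3. These too had higher explant than control steps. The amino acid exporter family genes UMAMIT28 and UMAMIT29 reached 14.5 and 17.1 CPM, and the peptide transporter PTR3 21.8 CPM. None of 9 measured nitrate and phosphate uptake genes was a stepwise gene, a list too short to set against 0.88% of all loci. Of these 9 genes 0 were at least 4-fold higher at the control step and 4 at the explant step, beside 5.06% and 4.42% of all loci.

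The 16 transcription factors were 5 named MYB, 4 named NAC and 3 named WRKY genes, with RAX2, the ERF family gene AT5G61890, the NAC domain gene AT3G12977 and the bHLH gene AT5G65320 as the rest. NAC047 stood at 1.11, 5.59 and 45.5 CPM and NAC001 at 1.51, 7.63 and 39.2, the most counted genes of the class in the explant. WRKY45 was at 0.580, 5.85 and 30.1 CPM, WRKY8 at 0.557, 3.86 and 22.1, and WRKY71 at 0.0232, 0.333 and 20.8. WRKY71 had the steepest explant step of these, 62.5 (37.7 to 112), and RAX2, a regulator of axillary meristems, reached 89.9 (45.4 to 209) from 8 counts in the 2-day control.

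Of the MYB genes, MYB15, a regulator of lignin and defence genes, was at 0.139, 0.665 and 13.5 CPM. MYB111, an activator of flavonol synthesis, was at 0.348, 2.28 and 12.3 CPM, and MYB63, an activator of lignin genes, at 0.0696, 0.887 and 5.202. MYB31 and MYB112 reached 3.83 and 3.15 CPM in the explant. AT5G61890 was the 1 stepwise gene of 7 measured wound and regeneration factors, with 1, 138 and 700 counts and a control step of 132 (23.3 to 5247). The 5 named MYB genes compare with 45 MYB genes measured, the 4 NAC genes with 36 and the 3 WRKY genes with 42. All these counts stand beside the 0.88% of all loci.

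Among other enzymes TH8, a thioredoxin, stood at 0.0928, 10.6 and 123 CPM with a control step of 115 (44.5 to 423), and BAM5, a beta-amylase, at 0.162, 12.8 and 52.7 with 78.8 (37.99 to 197). AT1G27020, a protein of unknown role, was at 1.21, 46.6 and 313 CPM, with steps of 38.6 (29.3 to 51.9) and 6.72 (6.42 to 7.04). ACS7, which makes the precursor of ethylene, was scarce, at 0.0696, 0.3104 and 16.5 CPM, and its explant step was 53.2 (31.5 to 97.7). GAD4, a glutamate decarboxylase, was at 0.232, 5.59 and 62.4 CPM. The remaining genes of this class ran from 108 to 5027 counts in the explant. The senescence and suberin lists held no stepwise gene among 9 and 7 measured, too few for a count of 0 to stand apart from the 0.88% of all loci.

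In the reference gene order 10 of the 147 (6.80%) lay directly beside another stepwise gene, as 5 pairs: PDF1.3 with PDF1.2b, PDF1.2 with PDF1.2c, AT3G22600 with AT3G22620, Prx37 with AT4G08780, and AT5G44380 with AT5G44390. Each pair is 2 genes of 1 family. The share was 2.098% in the 286 genes of the explant-step set and 8.51% in the 505 of the control-step set, which differ in size, and no test was made. In the EARLI1 row the reference places gene models that the count tables do not list between the 3 stepwise genes. With only the listed models in the order, chosen after seeing the data, these 3 counted as neighbours too, which gave 13 genes (8.84%) in 7 pairs, against 2.098% and 8.91% in the compared sets. The median exon length was 1494 bases for the stepwise genes and 1845 for all loci. Sequence shared with another gene model of the tables, at 95% identity over 100 bases, was found for 9 of the 147, in most cases an overlapping neighbour. In AT4G38540 over 50% of the exon bases lie in another model as well. AT3G15310 has a separate copy, AT5G32621, and DTX1 matches the separate locus AT2G14661 at 97.1% over 551 bases. The counts of these genes are therefore uncertain.

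Marker genes of cell types were counted beside these values, and none is a stepwise gene. The 4 leaf mesophyll markers summed to 8656 CPM at T0, 4817 in the 2-day control and 3342 in the explant, so the tissue had a leaf's marks in every library. CAB3 was at 2970, 388 and 246 CPM in these libraries and LHCB2.1 at 1518, 28.3 and 26.0. RBCS1A was at 2106, 2116 and 1840 CPM and CA1 at 2062, 2284 and 1230. The lower sum in the 2-day control than at T0 thus came from CAB3 and LHCB2.1 alone. The 4 markers of dividing cells summed to 45.8, 62.2 and 109 CPM in the same order. HIS4 made up most of each sum, at 30.3, 45.2 and 80.1 CPM, and CYCB1;1 was at 1.25, 1.57 and 3.60. From T0 to the 2-day control CDKB2;1 went from 5.87 to 6.39 CPM and KNOLLE from 8.42 to 9.02. Both rose less there than the median ratio of 1.25 over all loci. The 4 endodermis and suberin markers summed to 0.0464, 0.0222 and 1.88 CPM, with 3, 3 and 0 of them at 0. Of 5 root hair markers 4, 5 and 4 were at 0, and of 3 shoot meristem markers 3, 3 and 1. The other sums at T0, in the 2-day control and in the explant were 719, 844 and 693 CPM for 4 epidermis markers, 235, 159.8 and 154 for 4 guard cell markers, 721, 715 and 366 for 4 phloem markers, and 65.7, 30.7 and 15.5 for 5 xylem markers. Within the epidermis and guard cell sums single markers went different ways. ATML1 was at 167, 150 and 33.9 CPM and CER6 at 247, 382 and 440. KAT1 was at 66.2, 36.5 and 19.0 CPM and MYB60 at 14.9, 19.2 and 19.9. The sums were 29.03, 65.3 and 59.2 CPM for 4 root tip and stele markers, of which 2, 1 and 1 were at 0, and 2.37, 2.55 and 1.52 for 3 trichome markers, 1 of them at 0 throughout. SCR (20.6, 48.6 and 47.4 CPM) and SHR (8.38, 16.5 and 11.2 CPM) made up most of the root tip and stele sums, and WOX5 had 0, 8 and 30 counts. Of the 11 marker sums, that of the dividing cells alone stood higher at both steps by total counts, and at neither step by 4-fold. The part of cell type makeup in the levels of the stepwise genes was not tested.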

How the data were processed

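The authors deposited raw counts per gene, in whole numbers, 1 table for each of the 3 libraries. FastQC, HTSeq, DESeq and the genome build TAIR10 appear in the submitters' processing notes without versions or roles. The strand setting, library kit and aligner were not given in the sources used here, so reads of overlapping and antisense genes cannot be told apart. Lines that name no gene were left out of the totals; ambiguous reads made up 2.12%, 2.18% and 2.17% and reads in no feature 0.700%, 0.763% and 0.677% in the explant, the 2-day control and T0.

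Counts were divided by the library's total gene counts to give CPM. The stepwise genes, the 9 gene lists, the 22 families and the marker genes were chosen with earlier results of these data known. With 1 library per group no model was fitted; ratios carry exact Clopper-Pearson 95% intervals (scipy 1.17.1), which cover counting error only. Named genes are the 12 with the highest explant CPM, the 6 with the highest lower bound at each step, the 2 nearest each side of each 4-fold limit, list members, families with 3 or more members and neighbouring pairs; any others were picked after their values were seen, as were the product classes and the gene clusters. Names, products, exon lengths, gene order and promoters come from RefSeq TAIR10.1 by locus tag, which matched all 147 genes, and shared sequence from blastn 2.17.0. Alternatives were TMM factors (edgeR 4.0.16), DESeq2 1.42.0 size factors, other limits and count minimums, thinning to the smallest library and a shorter promoter window. Other software was R 4.3.3, Python 3.11.15, numpy 2.4.6, pandas 2.3.3 and matplotlib 3.10.9.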

Additional observations from a re-analysis of the deposited data

How the results depend on the processing

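Scaling and depth left the number of stepwise genes within 1.5 times of 147: it was 119 with TMM factors, all 119 shared, 121 with DESeq2 size factors, 120 of them shared, 142 with totals outside the most abundant genes and 144 after thinning, 143 of them shared. The limits mattered more: 257 genes passed at 3-fold, 55 at 8-fold, 62 with the lower bound of each ratio at 4 or more, 76 with 1000 or more explant counts and 53 with 10 or more counts in both controls. The last falls by construction, since most of the genes had fewer counts at T0. With 30 or more explant counts 164 passed, and with 0 counts set to the floor of 3 counts 166. The median control step of the 147 was 7.55 with TMM and 7.38 with DESeq2 size factors, and the median explant step 10.9 and 11.1. Of 66 named genes 56 and 57 still had both ratios at 4 or more. With TMM the control step fell under 4 for AT1G30700, AT3G22240, FRK1, KTI1, LHT1, MYB15, MYB112 and WAG1. The explant step did so for EXPA10 and CML11. The 9 list members were 9 with TMM and 12 at 3-fold. The W box share was 32.4% with the shorter 200-base window. There it lay between the control-step set (25.6%) and the explant-step set (39.7%), without a clear lean to either. In the 300-base window it lay nearer to the explant-step set, and the cause of the difference was not tested. No paired analysis was possible because each group is 1 library. The 4-fold limits kept any ratio of a stepwise gene from turning from higher to lower under either scaling. Which step was the larger did turn for a few genes. Depth limits the control step most, where 57 genes rest on 3 or fewer T0 counts, and without a second library per group no result has a replicate check.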
